A study of Mus musculus with 23 samples.

Results

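The cytosolic ribosomal protein genes encode the proteins that, with the ribosomal RNAs, build the large (60S) and small (40S) subunits of the ribosome. They were taken here by name: every symbol that begins with Rpl or Rps followed by a digit, plus *Rplp0*, *Rplp1*, *Rplp2* and *Rpsa*, without names containing -ps (pseudogenes) and without names beginning with Rps6k (protein kinases). The rule found 87 of the 18512 gene symbols in the files. Among them, 43 encode core 60S proteins, 31 core 40S proteins and 3 the P stalk of the 60S subunit, the arm that binds translation factors. The others are 8 paralogues (*Rpl3l*, *Rpl7l1*, *Rpl22l1*, *Rpl36al*, *Rpl39l*, *Rps4l*, *Rps27l* and *Rps27rt*), the retrotransposed copy *Rpl37rt*, and *Rps19bp1*, which binds a ribosomal protein and is not one itself. The rule reads names and no measured value.

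RNA-seq counts came from the head of the pancreas of 23 C57BL/6 mice, 6 to 8 weeks old when injury was induced in the treated animals. Non-injured mice formed the baseline group (8 mice, 4 female and 4 male). The other mice had received caerulein, a cholecystokinin analogue that overstimulates the acinar cells and causes acute pancreatitis, as 8 hourly intraperitoneal injections of 50 µg/kg a day for 2 days, and were sampled at day 7 (8 mice, 4 female and 4 male) or day 14 (7 mice, 3 female and 4 male). Each library is bulk tissue, so fewer cells of a type and less RNA per cell cannot be told apart.

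A ribosome holds 1 copy of nearly every core protein, the stalk proteins Rplp1 and Rplp2 being exceptions, and the mRNAs of these proteins are among the most abundant of any cell. These mRNAs begin with a run of pyrimidines, the 5′ terminal oligopyrimidine tract, through which mTOR signalling and the RNA-binding protein Larp1 set how much of them is translated. Acinar cells, which make most of the protein of the pancreas as digestive enzymes, are rich in ribosomes on the rough endoplasmic reticulum.

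The stretch of 30 bases around the longest run of C and T near the RefSeq transcription start is shown for 10 members whose levels are described below, on the strand of the gene, 5′ to 3′, with the run in capitals (build GRCm38.p6). The first 6 had the lowest values at day 7, *Rplp0* is the reference gene of the RT-qPCR of the study, and the last 3 had positive values.
Rpl10: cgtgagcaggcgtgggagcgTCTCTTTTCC
Rpl37: ggcgggggtgCTTTCTCTTCCggtctcttt
Rpl28: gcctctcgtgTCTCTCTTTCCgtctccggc
Rps28: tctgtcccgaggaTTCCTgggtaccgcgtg
Rpl5: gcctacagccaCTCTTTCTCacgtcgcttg
Rpl4: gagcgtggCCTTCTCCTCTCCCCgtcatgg
Rplp0: aggaccgcctggTTCTCCTataaaaggcac
Rps27: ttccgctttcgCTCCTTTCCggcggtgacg
Rpl22: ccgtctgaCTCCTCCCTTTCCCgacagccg
Rpl22l1: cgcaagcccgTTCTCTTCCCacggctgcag

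The stretches lay at chrX:74270836-74270865 for *Rpl10*, chr15:5116631-5116660 for *Rpl37*, chr7:4792952-4792981 for *Rpl28*, chr17:33824567-33824596 (minus strand) for *Rps28*, chr5:107900497-107900526 for *Rpl5* and chr9:64173405-64173434 for *Rpl4*. Those of *Rplp0*, *Rps27*, *Rpl22* and *Rpl22l1* lay at chr5:115559466-115559495, chr3:90213632-90213661 (minus strand), chr4:152325679-152325708 and chr3:28805499-28805528. The run was 15 bases long in *Rpl4* and 5 bases long in *Rps28*. Counted from the annotated start, the first base printed lay between −47 (*Rpl22*) and 20 (*Rpl10*). A run shown is therefore the longest one near the start and not necessarily the tract at the 5′ end of the mRNA. That of *Rpl10* reaches the end of the bases searched and may be cut short. Of the 78 RefSeq start windows of 66 members, 62.8% held a run of at least 10 C or T within 50 bases on either side of the start, beside 18.1% of all 32851 windows of 27025 genes. The letters CCGGAAG, searched on both strands over the 300 bases of a window, were found in 34.6% of the members' windows and 8.86% of all windows.

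Depth was similar in all mice, with 7059890 to 9567446 counts per mouse. The 20 most abundant genes of the whole series are mostly digestive enzymes, with *Rn45s*, the precursor of the ribosomal RNAs, among them. They took 66.4% to 71.2% of the counts of a baseline mouse, whereas the range was 55.3% to 62.8% in mice of day 7 and 63.9% to 66.2% in mice of day 14. For this reason 2 scalings are given side by side below. Total-count scaling divides by all counts of a mouse. TMM scaling corrects the total for such shifts in composition, and its factors were 0.769 to 1.0 in baseline mice, 1.05 to 1.4 in mice of day 7 and 0.934 to 1.03 in mice of day 14. Levels are CPM, counts scaled to a common library size (counts per 1000000), on one of these scales. Genes were tested with the quasi-likelihood test of edgeR over all 23 mice with sex as a covariate, and adjusted p-values are Benjamini-Hochberg values over all genes tested. A gene is said to be higher or lower where the adjusted p was at most 0.05. Of the 87 members, 85 passed the filter on low counts, including all 77 core proteins.

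Together the 87 genes took a larger share of all counts after injury than at baseline, but a smaller one at day 7 once the most abundant genes were set aside. Their share of all counts was 1.55% at the lowest, 1.60% at the median and 1.70% at the highest baseline mouse. The corresponding values were 1.78%, 1.95% and 2.14% at day 7, and 1.86%, 1.90% and 1.97% at day 14. All 8 mice of day 7 and all 7 of day 14 lay above every baseline mouse, and the mean share was 20.6% and 18.2% higher than at baseline. After the 20 most abundant genes were left out of the total, the order was another one. The share then had a median of 5.31% at baseline (5.06% to 5.52%), 4.84% at day 7 (4.65% to 5.35%) and 5.45% at day 14 (5.34% to 5.60%), with 6 of 8 mice of day 7 below the baseline range. On TMM-scaled library sizes the medians were 1.94%, 1.65% and 1.95%, and again 6 of 8 mice of day 7 lay below every baseline mouse, while 1 of 7 mice of day 14 lay above it. No test was run on these sums.

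**Figure D1:**
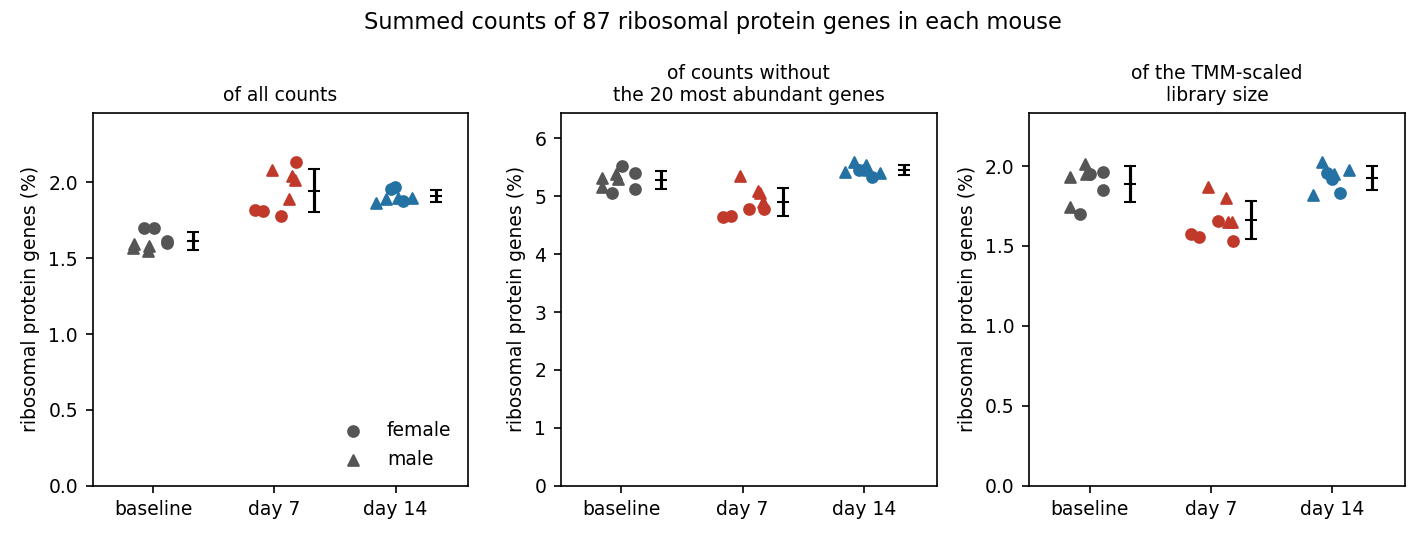
Share of counts on the 87 ribosomal protein genes (percent, y axis) by time point, 1 point per mouse (circles female, triangles male), with the mean and SD of each group as bars; the panels use all counts, counts without the 20 most abundant genes, and TMM-scaled library sizes. In the first panel all day 7 and day 14 mice lie above baseline, whereas in both other panels 6 of 8 day 7 mice lie below it.

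Levels of the members differed widely at baseline. Per kilobase of transcript on the TMM scale, the mean level of the 77 core genes ran from 60.3 to 945 CPM per kilobase, a 15.7-fold range, with a median of 288. The highest levels were those of *Rplp1* (945 CPM per kilobase, SD 61.8, n = 8), a stalk protein, *Rpl32* (907), *Rpl41* (843), the smallest of the ribosomal proteins, *Rpl10* (728), which completes the 60S subunit before it joins the 40S subunit, and *Rps18* (578), a 40S protein. At the other end were *Rps4l* (2.32 CPM per kilobase), *Rps19bp1* (3.17), *Rpl37rt* (16.7), *Rpl7l1* (27.3), a nucleolar protein of 60S assembly, and *Rps20* (60.3), whose annotated transcript of 3706 bases lowers its value per kilobase. These lengths are those of 1 annotated transcript per gene, and the values are not measures of protein. A pair of paralogues was nearly absent: *Rpl3l*, known from muscle, and *Rpl39l*, known from testis, had 2 counts each in all 23 mice together and were not tested.

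Individual mice of a group varied little. The coefficient of variation of a member on the TMM scale had a median of 7.40% at baseline, 8.66% at day 7 and 5.16% at day 14, beside 16.1%, 15.2% and 14.2% for all 12195 genes tested. Counts of abundant genes vary less from sampling alone, and no set of genes of matched level was compared. *Rplp0*, the reference gene of the RT-qPCR of the study, had coefficients of 6.04%, 8.27% and 6.10%. These ranked 18, 38 and 58 of 85 from the least variable member. The study states that *Rplp0* expression was consistent across its groups. The RT-qPCR cycle values it lists for *Rplp0*, which are lower for more RNA, were lower in every mouse of day 7 than in any baseline mouse. Those values were not compared with the counts here.

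Day 7 was compared with baseline to ask what still differed a week after injury. On the TMM scale 37 of the 85 members were lower and 2 were higher, in a comparison in which 9.7% of all genes tested were lower and 8.86% higher. The median log2 fold change of the members was −0.14, beside 0.02 for all genes tested, and 70 of 85 members had a negative value. The changes were small: none of the 85 members was called with a fold change of at least 1.5, in edgeR or in DESeq2, beside 3.82% of all genes higher and 1.31% lower in edgeR. An unadjusted p under 0.05 was found for 55 members. Of the core 60S proteins 24 of 43 were lower and none higher (median −0.18), of the core 40S proteins 12 of 31 were lower and 1 higher (median −0.13), and of the 3 stalk proteins 1 was lower. None of the 6 paralogues tested was lower and 1 was higher. Among ribosomal proteins that the name rule does not cover, these were lower at day 7: *Gnb2l1* (log2 fold change −0.31), the Rack1 protein of the 40S subunit, and *Fau* (−0.22), which encodes Rps30 fused to a ubiquitin-like protein.

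Under total-count scaling the direction of the same comparison was the opposite: 76 of 85 members were higher and 1 was lower, in a comparison in which 76% of all genes tested were higher and 0.525% lower. The members' median log2 fold change was then 0.32, beside 0.47 for all genes tested. The shift of all genes between the scalings was therefore about as large as that of the members. Measured from the median of all genes, the members' median was −0.16 under both scalings, and 70 of 85 members lay below the median of all genes under each of them. A change of scaling moves all genes by nearly the same amount, so this agreement was fixed in advance and is no independent support. With the 20 most abundant genes left out of the total, 32 members were lower and 10 higher, beside 6.3% and 15.5% of all genes, and their median was −0.064, beside 0.098 for all genes.

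**Figure D2:**
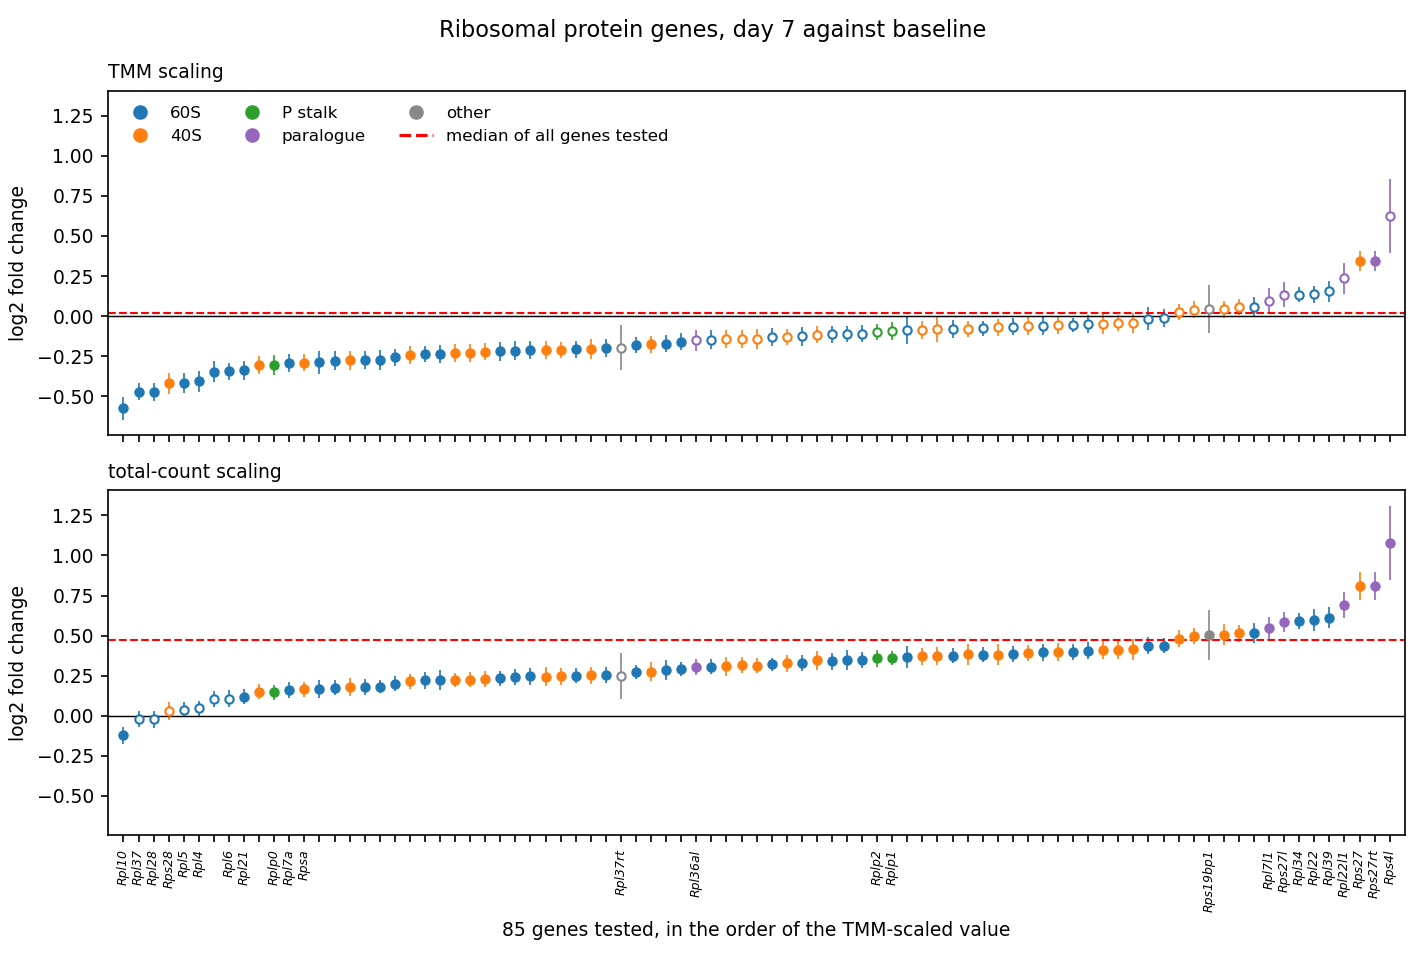
Log2 fold change of the 85 tested ribosomal protein genes at day 7 against baseline (y axis), ordered along the x axis by the TMM-scaled value, under TMM scaling (top) and total-count scaling (bottom). Points are coloured by class, filled where the adjusted p is at most 0.05, with the standard error as a line; the dashed line is the median of all genes tested. Some of the genes described in the text are labelled. A change of scaling moves all genes nearly alike, so the order of genes is nearly the same in both panels and zero moves: 70 of 85 members lie below the dashed line in each.

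The lowest value at day 7 was that of *Rpl10* (chrX:74270812-74273135). Its level on the TMM scale was 503 CPM at the lowest, 597 at the median and 633 at the highest baseline mouse, and 327, 382 and 466.1 CPM at day 7. The log2 fold change was −0.57 (SE 0.070, adjusted p = 2.09e-06). All 8 mice of day 7 lay below every baseline mouse. *Rpl10* was also the single member that was lower under total-count scaling (−0.12, adjusted p = 0.0395). There its levels overlapped, at 458 to 552 CPM at baseline and 403 to 495 CPM at day 7, with 5 of 8 mice below the baseline range. A stretch of 75 bases is as long as a read, and 8.14% of such stretches of *Rpl10* were found in no transcript of another gene. The transcripts of 11 annotated genes, 10 of them pseudogenes, share sequence with it. Which stretches the counted fragments came from was not tested.

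The 60S proteins Rpl37 and Rpl28 had values nearly as low. *Rpl37* had 136, 158 and 164 CPM (lowest, median and highest) at baseline and 101, 111 and 130 CPM at day 7, with a log2 fold change of −0.47 (SE 0.053, adjusted p = 5.11e-07). *Rpl28* had 120, 134 and 139 CPM at baseline and 83.9, 93.1 and 112 CPM at day 7, with a log2 fold change of −0.47 (SE 0.057, adjusted p = 1.93e-06). In both, the groups did not overlap. Under total-count scaling both were close to baseline, with −0.020 (adjusted p = 0.711) for *Rpl37* and −0.023 (adjusted p = 0.687) for *Rpl28*.

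*Rpl5*, which carries the 5S ribosomal RNA into the 60S subunit, had 315, 366 and 390 CPM at baseline and 243, 268 and 306 CPM at day 7 (log2 fold change −0.42, SE 0.060, adjusted p = 1.91e-05). *Rpl4*, which lines part of the exit tunnel for the new peptide, had 665, 836 and 867 CPM at baseline and 532, 594 and 696 CPM at day 7 (−0.41, SE 0.064, adjusted p = 6.84e-05). The groups of *Rpl5* did not overlap, and 6 of 8 mice of day 7 lay below the baseline range of *Rpl4*. *Rpl6*, another 60S protein, had 174, 182 and 187 CPM at baseline and 129, 140 and 164 CPM at day 7 (−0.34, SE 0.052, adjusted p = 4.17e-05), again without overlap. Among 40S proteins the lowest was *Rps28*, with 133, 150 and 162 CPM at baseline and 101, 111 and 122 CPM at day 7 (−0.42, SE 0.067, adjusted p = 7.52e-05). Under total-count scaling these 4 genes had positive values of 0.033 to 0.11 and did not pass the test.

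Counted over all members, 7 of 85 were lower in every mouse of day 7 than in any baseline mouse (*Rpl10*, *Rpl37*, *Rpl28*, *Rpl5*, *Rpl6*, *Rps28* and *Rpl7a*), beside 1.59% of all genes tested. None was higher in every mouse, beside 1.16% of all genes. Under total-count scaling none was lower and 42 of 85 were higher in every mouse, beside 20.5% of all genes.

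Of the stalk proteins, *Rplp0* was called at day 7 on the TMM scale, and a difference between the 3 was not tested. *Rplp0*, which anchors the stalk, had 660, 750 and 801 CPM at baseline and 543, 579 and 685 CPM at day 7 on the TMM scale, with 6 of 8 mice of day 7 below the baseline range. The log2 fold change was −0.31 (SE 0.060, 95% interval −0.42 to −0.19, adjusted p = 7.13e-04). On the total-count scale it had 584 to 699 CPM at baseline and 660 to 765 CPM at day 7, and was higher by 0.15 (adjusted p = 0.00655), with 4 of 8 mice above the baseline range. *Rplp1* and *Rplp2*, which form the movable part of the stalk, had values of −0.091 (adjusted p = 0.279) and −0.099 (adjusted p = 0.165) on the TMM scale and were higher by 0.36 each on the total-count scale. *Rpsa*, a 40S protein also known as the laminin receptor, had 384, 447 and 480 CPM at baseline and 329, 357 and 393 CPM at day 7. It was lower on the TMM scale (−0.29, adjusted p = 5.14e-04) and higher on the total-count scale (0.17, adjusted p = 0.00348).

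*Rps27*, a zinc-finger protein of the 40S subunit, was higher on both scales. It had 70.1, 75.9 and 86.2 CPM at baseline and 85.9, 93.7 and 115 CPM at day 7 on the TMM scale, with 7 of 8 mice above the baseline range. The log2 fold change was 0.34 (SE 0.064, adjusted p = 4.55e-04) on the TMM scale and 0.81 (adjusted p = 4.19e-08) on the total-count scale. The second gene called higher, *Rps27rt*, is not independent of it: the 2 symbols differed by at most 7 counts in any mouse, and 1.48% of the 75-base stretches of *Rps27* were found in no transcript of another gene. How uniquely mapped fragments came to be counted for both symbols is not given in the sources used here. *Rpl26* and *Rpl30* had nearly the same counts as *Gm15772* and *Gm12191*, and *Rpl34* as *Rpl34-ps1*, so these pairs too cannot be separated.

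The other paralogues did not pass the test at day 7 on the TMM scale. *Rps4l*, at a low level, had 0.724, 1.65 and 2.95 CPM at baseline and 1.56, 2.83 and 3.75 CPM at day 7 (log2 fold change 0.63, SE 0.23, adjusted p = 0.0575). *Rpl22l1*, the paralogue of the RNA-binding protein Rpl22, had 51.4, 84.4 and 103 CPM at baseline and 77.3, 94.0 and 121 CPM at day 7 (0.24, SE 0.097, adjusted p = 0.0922). *Rps27l*, a p53 target, had 0.13 (adjusted p = 0.251). Of the mice of day 7, 4 of 8 lay above the baseline range for *Rps4l* and 2 of 8 for *Rpl22l1*. *Rpl7l1* had 0.095 (adjusted p = 0.429), *Rpl36al* −0.15 (adjusted p = 0.106), *Rps19bp1* 0.043 (adjusted p = 0.873) and *Rpl37rt* −0.20 (adjusted p = 0.347). On the total-count scale all 6 paralogues tested were higher, with values of 0.30 (*Rpl36al*) to 1.08 (*Rps4l*).

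**Figure D3:**
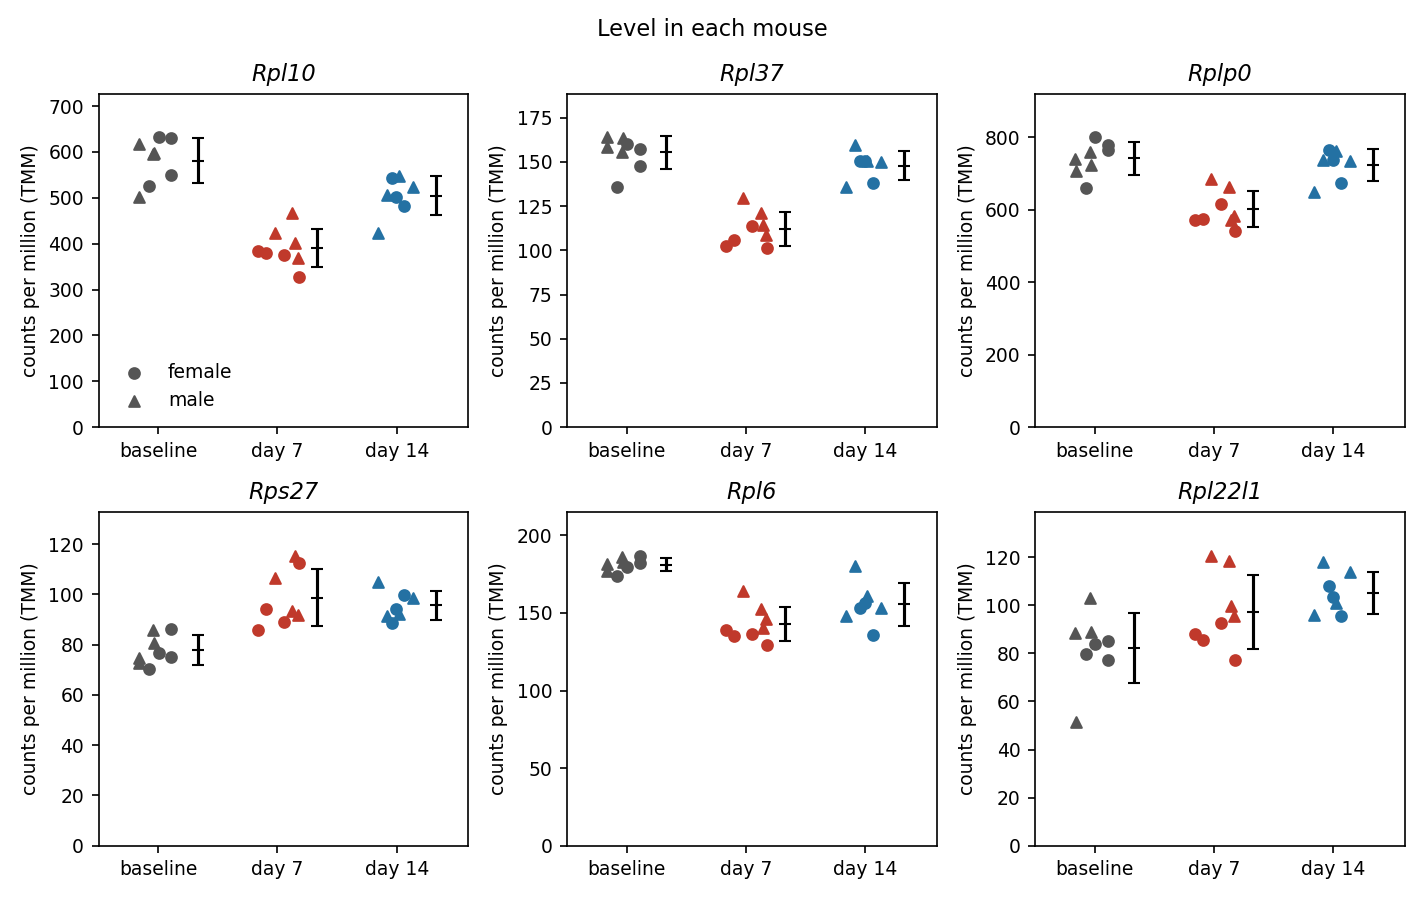
Level of 6 ribosomal protein genes (CPM on the TMM scale, y axis, from 0) by time point, 1 point per mouse (circles female, triangles male), with the mean and SD as bars. *Rpl10* and *Rpl37* are below baseline in all 8 mice of day 7, *Rpl6* is also below it in 6 of 7 mice of day 14, and *Rps27* is above it in 7 of 8 and 7 of 7 mice.

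To set the members beside their own sum, each mouse was also scaled by the summed counts of the 77 core genes, a choice made after seeing the data. Values on both sides of 0 follow from this scaling, and the most abundant members weigh most in the sum. At day 7, 27 members (31.8%) were then higher and 11 (12.9%) lower relative to this sum, beside 32.7% and 2.61% of all genes. The share of members higher was thus near that of all genes. The 11 lower members included *Rpl10* (−0.38), *Rpl37* (−0.28), *Rpl28* (−0.28), *Rps28* (−0.23), *Rpl5* (−0.22), *Rpl4* (−0.21) and *Rpl6* (−0.15). The higher ones included *Rps4l* (0.82), *Rps27* (0.54), *Rpl22l1* (0.43), *Rpl39* (0.35), *Rpl22* (0.33), *Rps27l* (0.33) and *Rpl34* (0.33). The proteins of the 2 subunits are found at both ends of this order. At day 14 against baseline, 4 were lower (*Rpl6*, *Rpl10*, *Rps28* and *Rpl28*) and 2 higher (*Rpl22l1* and *Rpl34*), beside 0.787% and 0.886% of all genes. For day 14 against day 7, 10 were lower, among them *Rpl7l1* (−0.38), *Rps27* (−0.26) and *Rpl22* (−0.19), and 5 were higher, among them *Rpl37* (0.18), *Rpl5* (0.16), *Rpl10* (0.15) and *Rpl4* (0.14), beside 28.9% and 0.484% of all genes.

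At day 14 the members were close to baseline on the TMM scale. Of 85 members 2 were higher, *Rps27* and its near-identical copy *Rps27rt*, and 1 was lower, *Rpl6*, in a comparison in which 1.05% of all genes were higher and 0.525% lower. The median log2 fold change was 0.056, beside 0.006 for all genes. *Rps27* had 88.7, 94.2 and 105 CPM at day 14 (0.30, SE 0.067, adjusted p = 0.0171), and all 7 mice lay above every baseline mouse. *Rpl6* had 136, 154 and 181 CPM at day 14 (−0.23, SE 0.054, adjusted p = 0.0227), and 6 of 7 mice lay below the baseline range. Without mouse 19 of day 14 none of the 85 passed the test. *Rplp0* had 650, 738 and 765 CPM and a log2 fold change of −0.041 (95% interval −0.16 to 0.081, adjusted p = 0.859). *Rpl10* (−0.21, adjusted p = 0.163), *Rps28* (−0.22, adjusted p = 0.125) and *Rpl22l1* (0.35, adjusted p = 0.0850) did not pass the test. *Rpl22*, *Rps27* and *Rps27rt* were the 3 of 85 members above baseline in every mouse of day 14, beside 0.435% of all genes, and none was below it in every mouse, beside 0.23%.

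Total-count scaling gave a different count for day 14 as well: 75 of 85 members were higher and none lower, beside 24.7% and 0.156% of all genes. Their median was 0.27, beside 0.22 for all genes. Relative to all genes it was 0.05 under both scalings, a value that a change of scaling leaves nearly unmoved. *Rps27* was higher by 0.51, and *Rpl6* had −0.016 (adjusted p = 0.849). The groups did not overlap, with day 14 higher, in 58 of 85 members, beside 3.8% of all genes. Without the 20 most abundant genes, 8 members were higher and 1 was lower, beside 1.26% and 0.508% of all genes. Day 7 and day 14 were each compared with the same 8 baseline mice, and their values are therefore not independent.

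Between day 7 and day 14, on the TMM scale, 26 of 85 members were higher at day 14 than at day 7 and none was lower, beside 1.01% and 0.279% of all genes. The median log2 fold change was 0.19, beside −0.015 for all genes, and 81 of 85 members had a positive value. The 26 comprised 15 core 60S proteins, 10 core 40S proteins and 1 stalk protein. *Rpl37* had the smallest adjusted p (log2 fold change 0.39, SE 0.054, adjusted p = 1.67e-04). Its level was 136 to 159 CPM at day 14, above every mouse of day 7. *Rpl5* (0.37), *Rpl10* (0.37), *Rpl4* (0.36) and *Rpl21* (0.31) were also higher, with adjusted p-values of 0.00105 to 0.00581. In 15 of 85 members every mouse of day 14 lay above every mouse of day 7, beside 0.41% of all genes, and in none below, beside 0.139%. *Rplp0* was higher by 0.26 (adjusted p = 0.0262). Negative values that did not pass the test were those of *Rpl7l1* (−0.17, adjusted p = 0.361), *Rps4l* (−0.14, adjusted p = 0.819), *Rps27* (−0.048, adjusted p = 0.785) and its copy. The count depended on single mice, from 14 without mouse 23 of day 14 to 37 without mouse 13 of day 7, with none lower in any of them.

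Under total-count scaling 3 members were higher and 13 lower at day 14 than at day 7, beside 0.426% and 33.3% of all genes. The members' median was −0.050 and that of all genes −0.25, a difference of 0.20 that was the same on the TMM scale. On either scale 81 of 85 members lay above the median of all genes. Neither value could differ much between the scalings, which move all genes nearly alike. In no member did every mouse of day 14 lie below every mouse of day 7 on the total-count scale, beside 3.87% of all genes.

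Intron-containing ribosomal protein genes commonly carry genes of small nucleolar RNAs (snoRNAs), which guide the modification of ribosomal RNA and are cut out of the same primary transcript as the mRNA. The annotation (GENCODE vM21) places 59 snoRNAs within members on the same strand, 34 pairs of host and snoRNA were in the files, and both partners were tested in 22 pairs with 19 hosts. The snoRNAs and their hosts had different values on the TMM scale. At day 7, 17 of 22 snoRNAs were higher and none lower, beside 8.86% of all genes higher. All 22 had values above that of their host, with medians of 0.57 for the snoRNAs and −0.18 for the hosts. At day 14, 10 of 22 were higher and none lower, beside 1.05% of all genes, with medians of 0.59 and 0.016. Between day 7 and day 14 none of the 22 passed the test in edgeR (2 had an unadjusted p under 0.05) or in DESeq2, which had 16 higher at day 7 and 10 at day 14. The study could not reproduce its snoRNA differences by RT-qPCR, although it states that the read coverage did show a change. *Snora52* within *Rplp2*, with 0.61 at day 7 and 0.84 at day 14 here, was among those it measured.

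*Snora70*, within *Rpl10*, was higher by 0.41 (adjusted p = 0.00150) where its host had −0.57. The largest value was that of *Snord35a* within *Rpl13a* (0.93, SE 0.19, adjusted p = 9.29e-04), at a low level of 0.694 to 2.47 CPM at baseline and 2.42 to 3.61 CPM at day 7. *Snora64* within *Rps2* (0.75), *Snora62* within *Rpsa* (0.74), *AF357399* within *Rps16* (0.72) and *Snord16a* within *Rpl4* (0.70) were also higher. A fragment library does not count RNAs as short as these evenly, so their levels are not comparable with those of mRNAs. Total-count scaling raised both partners, with a median of 1.02 for the 22 snoRNAs at day 7, all of them higher, beside 76% of all genes. The 30 members that span a snoRNA had a median of −0.21 at day 7 (16 lower), and the 55 that span none −0.12 (21 lower and 2 higher), beside 9.7% of all genes lower and 8.86% higher.

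**Figure D4:**
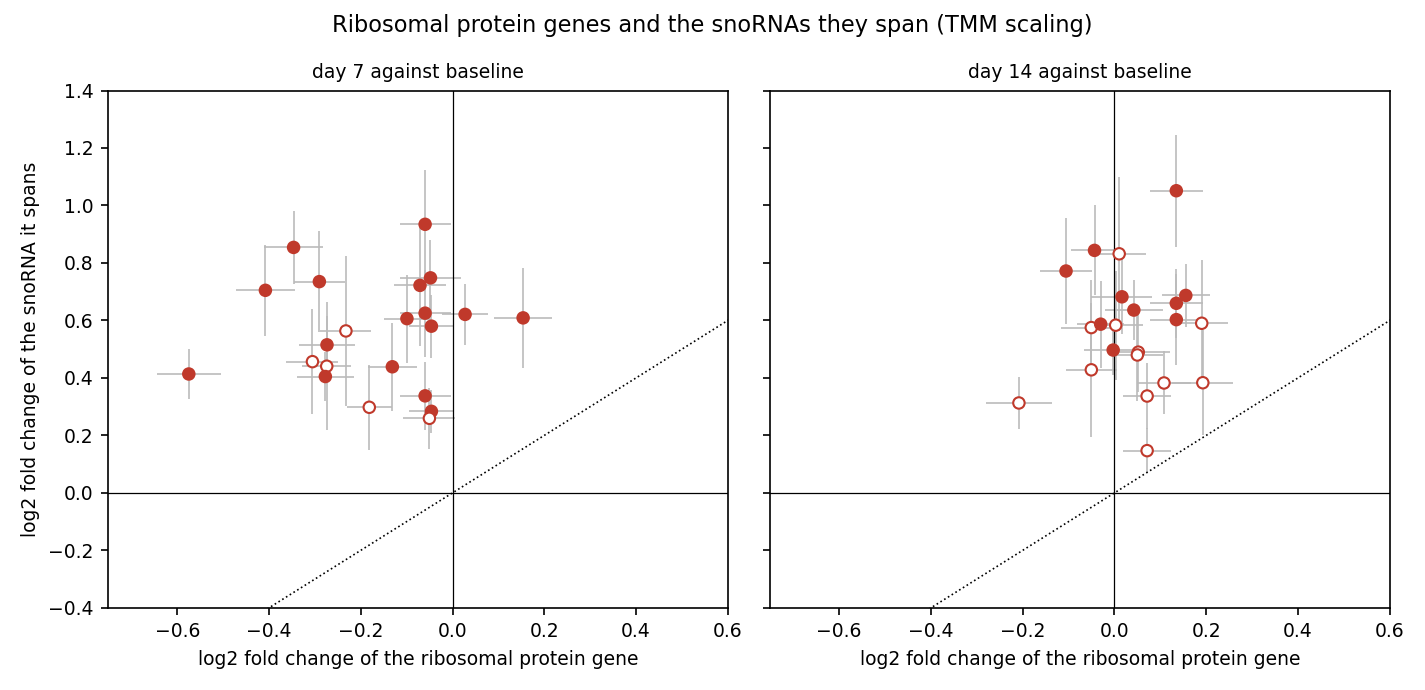
Log2 fold change of a snoRNA (y axis) against that of the ribosomal protein gene that spans it (x axis) on the TMM scale for 22 pairs, at day 7 (left) and day 14 (right) against baseline; filled points are snoRNAs with an adjusted p of at most 0.05, lines are standard errors and the dotted line marks equal values. All 22 points lie above the dotted line in both panels, and 17 and 10 are filled.

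Features of the genes were set beside the day 7 values as a description across genes, which are not independent replicates and share the same libraries. Longer transcripts had lower values (Spearman's rho −0.36 over 85 members, beside −0.094 over 11736 genes tested with an annotated length), as had members of higher level per kilobase (−0.35). The rho with GC content was −0.13 for the members and −0.27 for all genes. The run of C and T near the start showed little relation (0.096 over 64 members): the 44 members with a run of at least 10 bases had a median of −0.11, and the 20 with a shorter run −0.13. As this run need not be the tract at the 5′ end of the mRNA, these values do not bear on that tract. An offset for the trend with GC content in each mouse, added after seeing the data, left 31 members lower and 4 higher at day 7, beside 9.27% and 7.06% of all genes.

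Genes of pathways that supply the ribosomal proteins, and those of the mitochondrial ribosome, are read against 8.86% of all genes higher and 9.7% lower at day 7 on the TMM scale, and 76% higher and 0.525% lower under total-count scaling. Differences between these lists and the members were not tested. Of 67 genes of ribosome biogenesis, 5 were higher and none lower at day 7 on the TMM scale (median 0.063): *Taf1d* (0.51), a subunit of the RNA polymerase I factor SL1 and a snoRNA host, *Nop58* (0.49), a core protein of C/D snoRNPs, *Nip7* (0.33), *Dcaf13* (0.25) and *Nop10* (0.22), a core protein of H/ACA snoRNPs. Under total-count scaling 64 of the 67 were higher (median 0.52). Of 20 genes of growth signalling to ribosomal protein mRNAs, 6 were lower and 1 was higher (median −0.10). The lower ones were *Tsc2* (−0.44), an inhibitor of mTOR signalling, *Eif4ebp2* (−0.44), which blocks cap-dependent translation when mTOR is inactive, *Larp1* (−0.40), *Mtor* (−0.32) itself, *Rptor* (−0.30) and *Rheb* (−0.23), its activator. The higher one was *Cnbp* (0.28), which binds the pyrimidine tract. *Larp1* had 335, 356 and 393 CPM at baseline and 211, 289 and 307 CPM at day 7, without overlap. When 1 mouse at a time was left out, *Nip7* lost its call in 11 of 23 runs, *Nop10* in 10, *Dcaf13* in 6 and *Rheb* in 8. Under total-count scaling none of the 20 was lower and 14 were higher (median 0.35), and the 6 lower genes had values of 0.004 to 0.22. At day 14 *Mtor* was still lower on the TMM scale (−0.22, adjusted p = 0.0460). Of 77 mitochondrial ribosomal protein genes, which serve another ribosome, 1 was higher (*Mrpl33*, 0.46) and 3 were lower (*Mrpl53*, −0.30, *Mrpl42*, −0.28, and *Mrps7*, −0.27) at day 7, with a median of 0.031. Under total-count scaling 73 of the 77 were higher (median 0.48).

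Markers of cell types moved at the same time. The summed level of 16 acinar markers was 478880 to 707768 CPM at baseline, 286838 to 429416 CPM at day 7 and 451835 to 527030 CPM at day 14 on the TMM scale, and 14 of 16 were lower at day 7 and 7 of 16 at day 14. Of the markers of other cells, 8 of 9 for fibroblasts, 9 of 10 for macrophages, 4 of 9 for islets, 4 of 5 for red cells and 2 of 8 for ducts were higher at day 7. The 9 fibroblast markers summed to 332 to 653 CPM at baseline, 622 to 1198 CPM at day 7 and 531 to 750 CPM at day 14, and the 10 macrophage markers to 44.2 to 135, 86.0 to 181 and 64.9 to 110 CPM. For islets the sums were 137 to 571, 411 to 1169 and 446 to 877 CPM. Of the other lists, 1 of 6 endothelial markers was lower, and none of 5 adipocyte and 4 lymphocyte markers tested passed the test. At day 14, 3 of 9 fibroblast markers were higher, and no marker of the other non-acinar lists passed the test. These counts stand beside 8.86% of all genes higher and 9.7% lower at day 7, and 1.05% and 0.525% at day 14. Under total-count scaling at day 7, with 76% of all genes higher and 0.525% lower, 10 of 16 acinar markers were lower and 2 higher. On that scale all 9 fibroblast, all 10 macrophage and all 5 red cell markers, 8 of 9 islet, 4 of 8 duct and 1 of 6 endothelial markers were higher, and again no adipocyte or lymphocyte marker passed. None of the markers summed was at 0 in all mice of a group. The part of these markers in the values of the ribosomal protein genes was not tested.

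Females were compared with males across baseline, day 7 and day 14 in the same fit. In edgeR no member passed the test on the TMM scale (23 of 85 had an unadjusted p under 0.05, and 0.574% of all genes tested passed), and the smallest adjusted p was 0.0986, for *Rpl36a* (−0.16 in females against males). The median of the members was −0.070, beside 0.00033 for all genes, and 82 of 85 had a negative value. Under total-count scaling the median was 0.0049, beside 0.073 for all genes, and no member passed (1 with an unadjusted p under 0.05), beside 1.04% of all genes. DESeq2 had 3 members lower in females, *Rpl3* (−0.13), *Rpl36a* (−0.16) and *Rps18* (−0.15), named after their values were seen, beside 0.624% of all genes in either direction. The lowest values in edgeR were those of *Rps4l* (−0.41), *Rpl36a* and *Rpl22l1* (−0.15), and the highest those of *Rps19bp1* (0.17) and *Rpl36al* (0.048), none with an adjusted p under 0.05. Whether the change after injury differed between the sexes was tested as an interaction. In edgeR on the TMM scale none of the 85 members passed at day 7 (5 at an unadjusted p under 0.05, smallest adjusted p 0.680), beside 0.00773% of all genes. Of the 85 values 75 were negative, a lower change in females than in males, with a median of −0.11 beside 0.012 for all genes. The members share the same libraries, and no test was run on this median. DESeq2 had none of 87 at day 7 (8 at an unadjusted p under 0.05, smallest adjusted p 0.409), beside 0.103% of all genes. Total-count scaling in edgeR had none of 85 (23 at an unadjusted p under 0.05, smallest adjusted p 0.345), beside 0.00773% of all genes. There 82 of 85 values were negative, with a median of −0.16 beside −0.036 for all genes. At day 14 none passed in edgeR on the TMM scale or in DESeq2 (0 at an unadjusted p under 0.05 in both, beside 0% of all genes). Total-count scaling had none either (1 at an unadjusted p under 0.05), beside 0% of all genes. On the TMM scale the median at day 14 was 0.026, beside 0.015 for all genes. With 3 or 4 mice per sex and time point, the median standard error of an interaction was 0.11 at day 7 and 0.12 at day 14, beside 0.056 for the change from baseline to day 7 over both sexes.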

How the data were processed

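The authors depleted total RNA of ribosomal RNA (TruSeq stranded, Ribo-Zero Gold), sequenced paired reads of 75 bases, trimmed them (Trim Galore, cutadapt), aligned them to mm10 with STAR 2.5.2a and counted uniquely mapped fragments with featureCounts, whose annotation and strand setting are not given in the sources used here. The deposited values are these counts, whole numbers per gene symbol for 23 mice. Mouse 20 of 24, which the study left out for poor mapping, was not analysed here, and the labels name no sequencing batch. In the mapping statistics of the study, every analysed mouse of day 14 had a smaller share of tags on 5′ UTR exons than any mouse of baseline or day 7. Every mouse of day 7 had a lower rate of duplicate reads and a larger share of tags on 3′ UTR exons than any baseline mouse. Whether these differences between libraries bear on the day 7 or day 14 values was not tested. Each mouse is 1 replicate, grouped by the labelled time point and sex.

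In R 4.3.3, the counts of all mice entered edgeR 4.0.16 (with limma 3.58.1), with TMM factors, filterByExpr by time point (12195 genes), glmQLFit with robust = TRUE and glmQLFTest, with time point and sex in 1 fit. The interaction used 6 coefficients of sex and time point (12933 genes). P-values are two-sided. A standard error was derived from the test, as the size of the change over the root of its F value, and an interval is 1.96 times it on either side. CPM are counts over the scaled library size. After the main fit, the same model was also run on counts simulated from its levels and spread. The outcome of that run is not reported here. Total counts of 7059890 to 9567446 give each core member at least 394 counts per mouse (*Rpl27*), whereas *Rps4l*, *Rps19bp1* and *Rpl37rt* had as few as 5, 12 and 20.

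Alternatives were scaling by all counts, scaling by all but the counts of the 20 most abundant genes, DESeq2 1.42.0, its size factors in edgeR, other filters (at least 1 count in any mouse or 10 in every mouse), only the mice compared, no sex covariate, and leaving out each mouse. Scaling by the core genes' sum and a GC offset were added after seeing the data. Genes and transcript lengths are from GENCODE vM21 (1 transcript per gene, best APPRIS rank, then the shortest), start windows from RefSeq (GRCm38.p6), of which 66 members had one. A window of 75 bases is unique where no transcript of another gene holds it. Tables and plots were made in Python 3.11.15 (matplotlib 3.10.9, scipy 1.17.1, pandas 2.3.3, numpy 2.4.6).

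The members and lists were chosen with earlier results of these data known. Genes named are *Rplp0*, *Rplp1*, *Rplp2*, *Rpsa*, the paralogues and *Rps19bp1*, for each comparison all members called if at most 12, otherwise the 6 of smallest adjusted p in each direction, the 3 highest and 3 lowest values, the 5 highest and 5 lowest levels per kilobase, the 6 hosts with the largest snoRNA change, and of other lists all genes called if at most 8, otherwise 4 each way. *Rpl37rt* was set apart after its values were seen, and so were other genes named outside this rule: *Rpl39*, *Rpl34* and *Rpl22*, *Rpl7a*, *Rpl26*, *Rpl30*, *Snora70* and the wider sets shown with them. Some genes that this rule names are not reported here.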

Additional observations from a re-analysis of the deposited data

Results flagged for a closer look

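In groups of 7 or 8 mice, the highest and the lowest mouse of 123 groups of values were compared with Dixon's 95% critical values. Of these, 6 stood apart, about as many as the 1 in 20 that chance gives. They are listed as a description, and nothing is read from which genes they are. None of the 6 is a member of the core set. On the TMM scale, *Cnbp* had 152 CPM in its highest baseline mouse (mouse 6), far above the others of its group. *Snora68* had 109 CPM in the same baseline mouse, again the highest. *Gnb2l1* had 494 CPM in its lowest baseline mouse (mouse 4). *Nop58* had 17.8 CPM in its lowest mouse of day 7 (mouse 9). In mouse 24 of day 14, *Nip7* (8.39 CPM) and *Snora62* (5.30 CPM) were each the highest value and stood apart from the rest of the group.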

How the results depend on the processing

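The scaling decided the direction of 2 of the 3 time comparisons. For day 7 against baseline, total-count scaling gave 77 members called (76 higher, 1 lower; median 0.32), and scaling by the core genes' sum 38 (27 higher, 11 lower; median 0.054), in place of 39 (37 lower; median −0.14). For day 14 against baseline, total-count scaling gave 75 (median 0.27), leaving the 20 most abundant genes out of the total 9, DESeq2 6 and the core genes' sum 6 (2 higher, 4 lower), in place of 3. For day 14 against day 7, total-count scaling gave 16 (3 higher, 13 lower; median −0.050), the core genes' sum 15 (5 higher, 10 lower; median −0.025), DESeq2 54 higher (beside 1.42% of all genes) and no filter on low counts 16 higher (0.551%), in place of 26 higher. With a fold change of at least 1.5 as well, 0 members were called on the TMM scale in edgeR in each of the 3 comparisons. Total-count scaling then had 8 at day 7 and 1 at day 14, and at day 7 the core genes' sum, the GC offset and the total without the 20 most abundant genes had 1 each. The share of all genes at this fold change was not computed for these settings. Under total-count scaling the median of all genes was itself 0.47 at day 7 and 0.22 at day 14. These counts are therefore not read as a result about the members. DESeq2 called 3 members for female against male, where edgeR called 0. The share of counts on the members had medians of 5.31%, 4.84% and 5.45% at baseline, day 7 and day 14 without the 20 most abundant genes, 1.94%, 1.65% and 1.95% on TMM-scaled sizes, and 1.85% at day 14 for the core genes alone. The cause was not tested beyond the scalings themselves.

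Leaving out each mouse gave 37 to 43 members called at day 7 (median −0.16 to −0.12), 0 to 4 at day 14 (median 0.036 to 0.072), and 14 to 37 for day 14 against day 7 (median 0.17 to 0.22). The 0 was without mouse 19 of day 14, where the adjusted p of *Rps27* was 0.052. For day 14 against day 7 the count was 14 to 17 without mouse 14 or 15 of day 7 or mouse 17, 22, 23 or 24 of day 14. *Rpl6* at day 14 did not pass without mouse 2 of baseline or mouse 19, 21 or 24 of day 14 (adjusted p up to 0.108). *Rplp0* for day 14 against day 7 did not pass without mouse 12, 14 or 15 of day 7 or mouse 17, 18, 22, 23 or 24 of day 14 (adjusted p up to 0.0691). At day 7, *Nip7* did not pass without mouse 2, 6, 7 or 8 of baseline, 10, 11, 12, 13, 14 or 16 of day 7 or 19 of day 14 (adjusted p up to 0.102), *Nop10* without mouse 2, 3, 4, 5, 7 or 8 of baseline or 9, 11, 13 or 14 of day 7 (up to 0.080), *Dcaf13* without mouse 1, 2 or 8 of baseline or 10, 11 or 15 of day 7 (up to 0.067), and *Rheb* without mouse 1, 3, 6 or 7 of baseline or 10, 12, 15 or 16 of day 7 (up to 0.101). No member was called for sex or the interaction without any 1 mouse. *Rps19bp1* at day 7 reached −0.025 in one of these.

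Under total-count scaling, single genes that turned positive at day 7 were *Rplp0* (0.15), *Rplp1* (0.36), *Rplp2* (0.36), *Rpsa* (0.17), *Rpl5* (0.038), *Rpl4* (0.046), *Rps28* (0.033), *Rpl6* (0.11), *Rpl36al* (0.30), *Eif4ebp2* (0.0039), *Larp1* (0.044), *Rptor* (0.15), *Tsc2* (0.0088), *Mtor* (0.13), *Rheb* (0.22), *Gnb2l1* (0.14) and *Fau* (0.24), and at day 14 *Rplp0* (0.18), *Rpl10* (0.0096) and *Rps28* (0.0022). With the core genes' sum *Rplp1* (0.10), *Rplp2* (0.095) and *Rpl36al* (0.042) turned positive at day 7. Over all alternatives, 455 other values of single genes kept their direction and their side of the threshold, 32 lost their call and 24 gained one.

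No paired analysis was possible because each mouse carries its own number and no number is shared between groups.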
